A study of Mus musculus with 3 samples.

Results

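The genes described are 6 channel genes of burst and pacemaker firing, Cacna1g, Cacna1h and Cacna1i of the T-type calcium channels and Hcn2, Hcn3 and Hcn4 of the HCN channels. They were chosen by name, and all 6 were among the 32285 genes of the count table. T-type channels open at voltages below the spike threshold after a neuron has been hyperpolarised, and the calcium that enters carries a burst of spikes. HCN channels open on hyperpolarisation, carry the depolarising pacemaker current, and are shifted by cyclic AMP to a degree that differs between subunits. Both currents are known for the burst firing of thalamic relay neurons and of lateral habenula neurons. Other HCN genes were not analysed here.

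Transcripts were counted as UMIs (unique molecular identifiers, each a single captured transcript) in nuclei from mothers (sexually experienced females), virgin males and virgin females. For each group, tissue of 3 mice went into a single library of nuclei, dissected from the lateral habenula (LHb), sorted for the nuclear envelope label KASH-GFP and described by the submitters as BNST LHb neurons (BNST, bed nucleus of the stria terminalis). The labels used here state neither strain nor age, nor how the fluorescent label reached the cells. The authors annotated 592 of 603 nuclei as neurons (201 of mothers, 204 of virgin males, 187 of virgin females) and placed them in clusters numbered 0 to 4, which held 172, 157, 97, 91 and 75 neuronal nuclei.

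A level in CPM is the number of UMIs of a gene per 1000000 UMIs of that cluster and library. Levels of different genes are not set side by side, since gene length and intron counting can set them. The neuronal nuclei held 2691639 UMIs in mothers, 2122919 in virgin males and 2718356 in virgin females, and no cell barcode was shared between libraries. Brackets hold exact 95% intervals, which cover counting error only. The clusters were made from the genes of these same nuclei, so differences between clusters are described and carry no test. The libraries differ in group, so there is no replicate check of any difference between groups. The LHb label was not borne out by every marker. Pou4f1, a transcription factor of habenular neurons, had no UMI in clusters 0, 2 and 3, where 6 thalamic markers (Lef1, Prkcd, Rora, Ntng1, Gbx2 and Plekhg1) summed to 7089, 8266 and 10641 CPM. They summed to 2053 CPM in cluster 1 and 1454 CPM in cluster 4, and the 6 LHb markers to 899, 1893, 1116, 1173 and 1760 CPM in clusters 0 to 4. Single markers of a list differed in order. Pou4f1, Pcdh10, Htr2c and Gpr151 were highest in cluster 1, but Gap43 in cluster 0 (231 CPM) and Chrm3 in cluster 4 (992 CPM). Gpr151 stood at 11.6 CPM in cluster 0, and Chrm3 at 598 CPM in cluster 3. In cluster 0, Ntng1 and Rora held 4196 and 2425 CPM of the thalamic sum, and Prkcd and Gbx2 13.4 and 7.39 CPM.

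Cacna1g, the T-type gene of thalamic relay neurons (chromosome 11, 94408391 to 94474198 on GRCm38, minus strand), gave 1361 UMIs and was low in cluster 1. In that cluster it stood at 63.1 CPM in mothers, 41.2 in virgin males and 53.1 in virgin females. Cluster 3 stood at 257, 227 and 316 CPM and cluster 2 at 233, 242 and 210 CPM, in the same order of libraries. Cluster 0 stood at 221, 188 and 208 CPM and cluster 4 at 163, 127 and 215 CPM. Every value of cluster 1 lay below every value of the other clusters, while clusters 3, 2, 0 and 4, in falling order of their means of 267, 228, 206 and 168 CPM, overlapped from each neighbour to the next. The mean of cluster 3 was 5.09 times that of cluster 1, and the ratio was 4.07 in mothers, 5.52 in virgin males and 5.97 in virgin females. The level in cluster 1 was 0.283, 0.202 and 0.231 times that of the other 4 clusters together.

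Nuclei of cluster 3 were deeper than those of cluster 1 in every library, with medians of 14706, 12968 and 19364 UMIs against 10216, 6863 and 11282 UMIs. The share of nuclei with a Cacna1g UMI was therefore read after each nucleus was thinned to 5000 UMIs, which left 533 of the 592 nuclei (187 of mothers, 174 of virgin males and 172 of virgin females). Cluster 3 then had a UMI in 69.7% [59.0, 79.0] of nuclei, cluster 2 in 63.8% [53.3, 73.5] and cluster 0 in 61.7% [53.5, 69.4]. Cluster 4 had one in 53.6% [41.2, 65.7] and cluster 1 in 26.8% [19.3, 35.4]. These intervals pool the nuclei of 3 libraries, and that of cluster 1 meets none of the others. Within single libraries, cluster 1 had the lowest share, at 30.3% in mothers, 18.9% in virgin males and 29.8% in virgin females. Its interval there met that of at least 1 other cluster in every library. Without thinning, 432 of 592 neuronal nuclei (73.0%) had a UMI at a median depth of 11380 UMIs. Of the 11 nuclei annotated as glia or ependyma, 0 had one at a median depth of 4780. This allows a share of up to 27.3% (3 of 11), or 28.5% by the exact interval. Within cluster 1, nuclei with the deposited subtype label LHb2 stood at 68.4 CPM in mothers, 64.9 in virgin males and 63.6 in virgin females. Those labelled LHb4 stood at 54.1, 13.9 and 33.5 CPM, lower in each library.

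Cacna1i, the T-type gene known for the slow, long bursts of reticular thalamic neurons (chromosome 15, 80287238 to 80398279, plus strand), had the widest range over clusters of the 5 genes with at least 50 UMIs. It was high in cluster 4, with 126 CPM in mothers, 237 in virgin males and 147 in virgin females. In cluster 3 the same libraries held 1.80, 5.25 and 5.75 CPM, from 1, 3 and 2 UMIs. Cluster 0 stood at 55.7, 35.1 and 44.7 CPM, cluster 1 at 24.8, 54.2 and 43.6 CPM, and cluster 2 at 11.2, 10.7 and 17.5 CPM. Cluster 4 lay above all others, clusters 0 and 1 overlapped, cluster 2 lay below them and cluster 3 below cluster 2, in every library. The mean of cluster 4 was 39.8 times that of cluster 3, and over summed UMIs (122 against 6) the ratio was 38.7 [17.3, 107].

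A thinned Cacna1i UMI was found in 50.7% [38.4, 63.0] of nuclei in cluster 4 and in 21.4%, 18.1%, 6.38% and 3.37% of those in clusters 0 to 3. Reticular thalamic neurons are GABAergic, so the GABAergic markers were read in the same nuclei. In cluster 4, Gad1, Slc32a1 and Ecel1 had no UMI, while Gad2 had 46 UMIs and Pvalb 1. Over all libraries Gad2 stood at 59.2 CPM in cluster 4, its highest, and at 1.85, 36.5, 0 and 0 CPM in clusters 0 to 3. Together the 5 genes summed to 37.1 CPM in mothers, 66.1 in virgin males and 105 in virgin females in cluster 4. The 52 nuclei of cluster 4 with no UMI of Gad1, Gad2 or Slc32a1 held Cacna1i at 164 CPM, and the 23 with at least 1 held it at 142 CPM. In cluster 1, the 17 nuclei with at least 1 such UMI held Cacna1i at 99.9 CPM and Cacna1h at 44.4 CPM, and the other 140 held them at 35.0 and 4.45 CPM. Without any of these nuclei the ratio of cluster 4 to cluster 3 for Cacna1i was 39.5. In cluster 4, 41 of 75 nuclei had a UMI of both Cacna1i and Cacna1g, and Cacna1i was found in 74.5% of the nuclei with Cacna1g and 70.0% of those without. In the draw of 5000 UMIs, 15 of 69 had both, 22 had Cacna1g alone, 20 had Cacna1i alone and 12 had neither. The draw thus turned the direction, with Cacna1i found more often in nuclei without Cacna1g. Over all such draws, 19 of 69 nuclei were expected to have both.

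The Cacna1i promoter is printed because its gene shows the widest cluster range. It is the stretch from 250 bases before to 50 after RefSeq's start (GRCm38.p6, chr15:80286988-80287287, plus strand), 5′ to 3′, with capitals on letters that match a motif searched below.
Cacna1i: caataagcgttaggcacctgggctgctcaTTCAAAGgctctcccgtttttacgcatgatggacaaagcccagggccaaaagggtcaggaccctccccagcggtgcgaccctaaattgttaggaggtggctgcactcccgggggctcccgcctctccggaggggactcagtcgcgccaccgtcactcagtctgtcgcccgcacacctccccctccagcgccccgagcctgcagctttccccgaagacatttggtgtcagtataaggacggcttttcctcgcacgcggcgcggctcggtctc
The promoter of Hcn4 (chr9:58822699-58822998, plus strand, at a RefSeq start upstream of GENCODE's) is printed beside it. In the main values the order of its cluster means is the reverse, which some alternatives lost, as described below.
Hcn4: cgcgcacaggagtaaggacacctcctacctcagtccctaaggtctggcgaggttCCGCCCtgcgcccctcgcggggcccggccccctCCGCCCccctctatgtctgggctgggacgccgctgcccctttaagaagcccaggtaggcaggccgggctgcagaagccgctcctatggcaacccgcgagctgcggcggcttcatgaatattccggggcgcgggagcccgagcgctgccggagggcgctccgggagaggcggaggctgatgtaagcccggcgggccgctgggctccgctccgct
Of the 6 genes, 3 had an entry among the RefSeq promoters (Cacna1i, Hcn2 and Hcn4). Letters were searched on both strands for the GC box GGGCGG, the TATA box TATAAA, the cyclic AMP response element TGACGTCA, the E box CACGTG and CTTTGAA, read by TCF and LEF factors. Hcn4 held 2 GC boxes and Cacna1i none, and 35.7% of 32851 promoters of the same length held at least 1. The promoter of Hcn2, not printed, held 3. Cacna1i held 1 match of CTTTGAA, found in 5.14% of those promoters, and Hcn4 none. Neither held the others. No letters were shared by matches of different motifs, and a match describes letters, not a binding site. Both promoters were rich in CpG, with 23 in Cacna1i and 31 in Hcn4 against a median of 7.

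Cacna1h, the T-type gene known from sensory neurons and the reticular thalamus (chromosome 17, 25374285 to 25433783, minus strand), was near the limit of detection, with 38 UMIs in 29 of 592 neuronal nuclei (4.90%). Of the 11 other nuclei 1 had a UMI (9.09% [0.23, 41.3]), at a median depth of 4780 UMIs against 11380. These nuclei are too few and too shallow to place the neuronal share above or below a background. In cluster 4 it gave 7 UMIs in mothers, 1 in virgin males and 1 in virgin females, and in cluster 1 it gave 0, 7 and 8 UMIs. Clusters 0 and 2 gave 10 and 4 UMIs over all libraries, and the 91 nuclei of cluster 3 gave 0. Set against a floor of 3 UMIs over cluster 3, the level of cluster 4 over summed UMIs (9 UMIs) stood at a ratio of 5.70. The lower limit of the counting interval against the 0 UMIs of cluster 3 was 3.75. The floor ratio was 1.65 without the library of mothers and 1.29 in thinned nuclei, so it rests on few UMIs. Cacna1h overlaps Tpsg1 on the other strand over 158 bases, and Tpsg1 had 1 neuronal UMI.

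**Figure D1:**
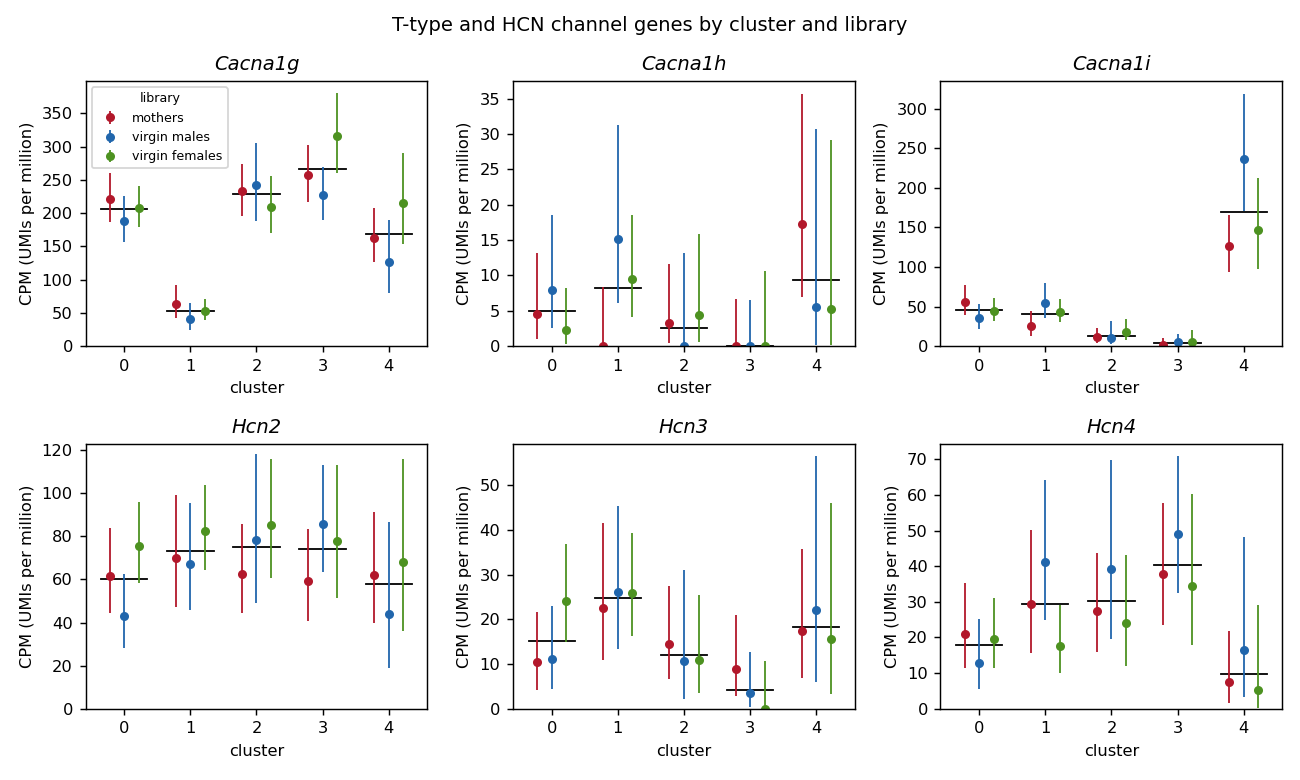
Level of each gene (CPM, linear axis from 0) in each cluster, 1 point per library with its exact Poisson 95% interval and a black line at the mean of the 3 libraries. Cacna1g is low in cluster 1 (mean 52.4 CPM), Cacna1i is high in cluster 4 (mean 170 CPM) and near 0 in cluster 3, and Hcn2 overlaps over all clusters.

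Hcn2, a cyclic AMP sensitive HCN subunit gene of thalamic relay neurons (chromosome 10, 79716634 to 79736108, plus strand), was the most even of the genes. It gave 521 UMIs, and its cluster means were 60.1, 73.2, 75.3, 74.2 and 58.0 CPM in clusters 0 to 4. The single values ran from 43.1 CPM in cluster 0 of virgin males to 85.7 CPM in cluster 3 of virgin males, and every cluster overlapped every other. The highest mean was 1.30 times the lowest, with a ratio over summed UMIs of 1.24 [0.865, 1.80], so a difference of the size seen in the other genes lies outside the interval. After thinning, 23.4%, 24.4%, 34.0%, 29.2% and 29.0% of nuclei in clusters 0 to 4 had a UMI, with overlapping intervals.

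Hcn4, the HCN subunit gene of the cardiac pacemaker and of thalamic neurons, which responds strongly to cyclic AMP (chromosome 9, 58823412 to 58863175 in GENCODE, plus strand), was highest in cluster 3 and lowest in cluster 4. Cluster 3 held 37.7 CPM in mothers, 49.0 in virgin males and 34.5 in virgin females. Cluster 4 held 7.43, 16.5 and 5.24 CPM, from 3, 3 and 1 UMIs. All values of cluster 3 lay above all values of cluster 4, and the means of 40.4 and 9.73 CPM stood at a ratio of 4.15, or 4.58 [2.10, 11.9] over summed UMIs. Clusters 2, 1 and 0 lay between, with means of 30.1, 29.4 and 17.8 CPM, and every neighbour in this order overlapped. In the draw of 5000 UMIs per nucleus, 6.49%, 12.6%, 11.7%, 10.1% and 2.90% of nuclei in clusters 0 to 4 had a UMI, with overlapping intervals, so cluster 3 was not the highest there. The exact expected shares over all such draws were 8.33%, 11.7%, 12.2%, 16.2% and 4.17%. The order of the 5 means is the reverse of that of Cacna1i. In the draw, cluster 2 had an Hcn4 mean of 28.7 CPM, cluster 1 one of 28.2 CPM and cluster 3 one of 24.9 CPM, so the reversal was lost. The expected means over draws were 17.2, 26.7, 28.0, 36.8 and 9.74 CPM for clusters 0 to 4, which keep the order. Other alternatives also lost the full reversal. With the mean of CPM per nucleus, cluster 1 passed cluster 2 for Hcn4 (31.8 against 27.1 CPM) and cluster 0 for Cacna1i (45.7 against 42.8 CPM). Without mothers, cluster 1 passed cluster 0 for Cacna1i (48.9 against 39.9 CPM). Without virgin females, cluster 1 passed cluster 2 for Hcn4 (35.2 against 33.2 CPM), as it did without GABAergic nuclei (30.5 against 30.1 CPM). Clusters 3 and 4 stayed the ends in these.

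Hcn3, an HCN subunit gene that responds little to cyclic AMP (chromosome 3, 89146074 to 89160196, minus strand), gave 117 UMIs and was highest in cluster 1 and lowest in cluster 3. Cluster 1 held 22.5 CPM in mothers, 26.0 in virgin males and 25.9 in virgin females. Cluster 3 held 8.98, 3.50 and 0 CPM, from 5, 2 and 0 UMIs. Cluster 1 lay above and cluster 3 below each of the others in mean, and neither overlapped its neighbour in that order (cluster 4 at 18.4 CPM and cluster 2 at 12 CPM). The ratio of means was 5.97, or 5.29 [2.36, 13.9] over summed UMIs, and it was 14.8 without the library of mothers. Cluster 0 stood at 10.5 CPM in mothers, 11.2 in virgin males and 24.0 in virgin females. The last value lies above the 22.5 CPM of cluster 1 in mothers, so clusters 0 and 1 overlapped. Hcn3 overlaps Pklr on the other strand over 711 bases, and Pklr had 4 neuronal UMIs.

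Against all genes, the cluster differences of the channel genes were as follows. Of the 5 genes with at least 50 neuronal UMIs (all but Cacna1h), 4 had a highest and a lowest cluster that did not overlap over the 3 libraries, as had 65.2% of 11467 genes, so that count alone is common. At least 1.5-fold in the same direction in all 3 libraries, in some cluster against the other 4, was reached by 4 of the 5 and by 31.7% of all genes. A ratio of highest to lowest mean of at least 4 without overlap, a limit set after the values were seen, was reached by the same 4 (Cacna1g, Cacna1i, Hcn3 and Hcn4) and by 15.5% of all genes, and one of at least 10 by Cacna1i and by 6.59%. The median ratio of the 5 was 5.09, and that of all genes 1.95. By cluster, Cacna1g was among the 7.42% of genes lower in cluster 1, Cacna1i among the 4.76% higher in cluster 4 and Hcn4 among the 7.93% lower there. In cluster 3, Hcn4 was among the 3.78% higher, and Cacna1i and Hcn3 among the 10.4% lower. Cacna1i was also among the 6.37% lower in cluster 2, and Hcn3 among the 7.52% higher in cluster 1.

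The make-up of each family changed with the cluster. These shares were added after the values were seen, and compare 1 gene between clusters, since capture of each gene sets the share itself. Cacna1i made up 41.1% of the T-type UMIs of cluster 4 in mothers (51 of 124), 64.2% in virgin males (43 of 67) and 40.0% in virgin females (28 of 70). In cluster 3 it made up 0.694%, 2.26% and 1.79%, and Cacna1g 98.5% [96.7, 99.4] over all libraries. In cluster 1, where Cacna1g was low, Cacna1i made up 28.2%, 49.0% and 41.1%. Summed over the 3 T-type genes, cluster 4 held 307, 369 and 367 CPM, cluster 1 held 87.8, 110 and 106 CPM, and the other clusters between 231 and 322 CPM. Cluster 1 was thus the lowest in summed T-type UMIs in every library, although its Cacna1i level overlapped that of cluster 0. Cluster 4 was the highest in mothers, virgin males and virgin females alike. In mothers its lead was small, at 307 against 282 CPM in cluster 0, from 124 and 187 UMIs. It was also small in virgin females, at 367 against 322 CPM in cluster 3, from 70 and 112 UMIs. The sum adds UMIs of genes whose capture can differ, so this order describes UMIs only.

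Of the UMIs of Hcn2, Hcn3 and Hcn4, Hcn2 made up 59.2% to 68.7% in the 5 clusters. Hcn4 made up 34.5% [27.5, 42.0] in cluster 3 and 10.4% [4.30, 20.3] in cluster 4, and Hcn3 made up 3.95% [1.60, 7.98] in cluster 3 and 20.9% [11.9, 32.6] in cluster 4. These intervals pool the 3 libraries, and those of clusters 3 and 4 do not meet for either gene. The 3 libraries keep both orders. Within single libraries the intervals met for Hcn3 in every library, and for Hcn4 in virgin males and virgin females. Over the 15 sums of cluster and library, Pearson's r of log2 CPM was −0.74 between Cacna1i and Hcn4 and 0.63 between Cacna1i and Hcn3. These sums share libraries, depth and the clustering, and the values describe them without a test. Cacna1i and Hcn4 both had a UMI in 37 of 592 nuclei at full depth. Pooled over clusters, an Hcn4 UMI was found in 20.9% of the nuclei with Cacna1i and in 25.5% of those without. Within clusters the direction differed. The shares were 32.3% (20 of 62 nuclei) against 13.6% in cluster 0, 50% (3 of 6) against 38.8% in cluster 3 and 10.9% (6 of 55) against 0% in cluster 4. They were 12.8% (5 of 39) against 27.1% in cluster 1 and 20% (3 of 15) against 31.7% in cluster 2. Outside cluster 0 these rest on few nuclei with both. In the draw of 5000 UMIs, 1 of 533 nuclei had both, against 6.25 expected over all draws, so at equal depth the overlap is too small to read.

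**Figure D2:**
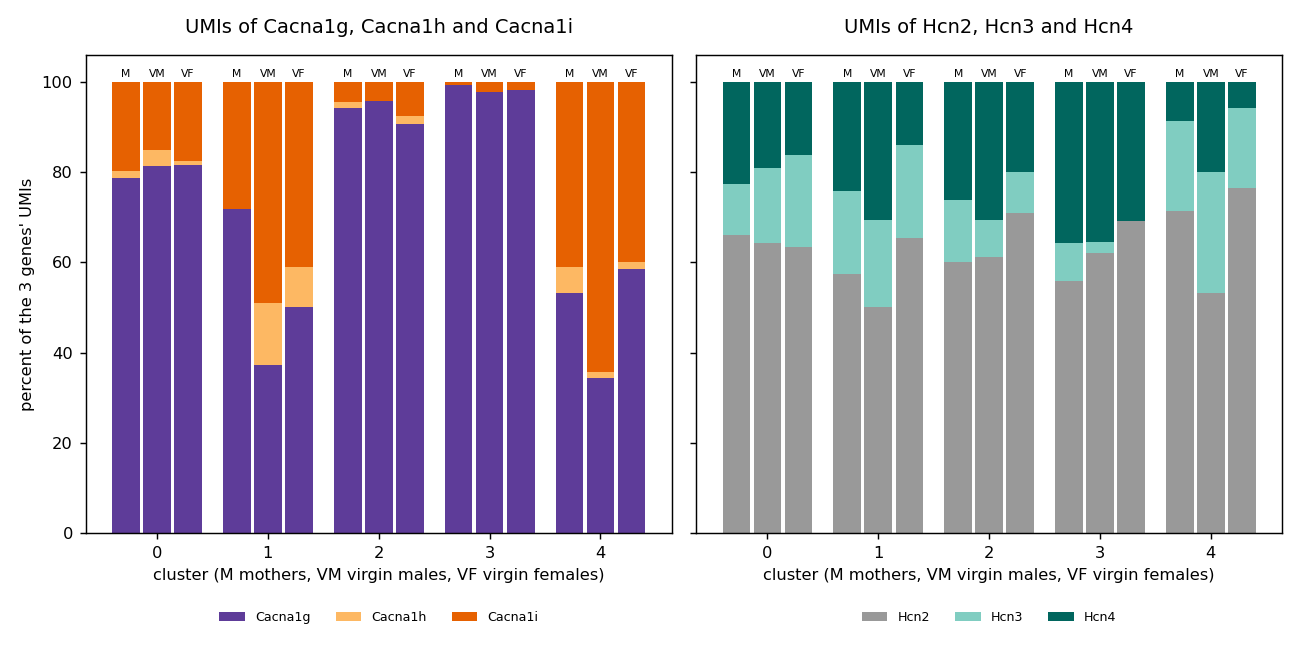
Percent of the UMIs of the 3 T-type genes (left) and of Hcn2, Hcn3 and Hcn4 (right) that each gene gave, 1 bar per library in each cluster. Cacna1i makes up 40.0% to 64.2% of T-type UMIs in cluster 4 and 0.694% to 2.26% in cluster 3, while the Hcn4 part is widest in cluster 3.

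Between libraries, 1 of the 5 measured channel genes, Hcn4, passed 1.5-fold, and in 1 of the 3 pairs. With 1 library per group the ratios describe these libraries, and a fold of 1.5 served as the size rule. In neuronal nuclei Hcn4 stood at 32.5 CPM [25.3, 41.1] in virgin males and 20.6 CPM [15.6, 26.8] in virgin females, a 1.58-fold [1.09, 2.29] ratio past the rule, as were 7.56% of 10024 genes either way and 2.98% higher. It was higher in virgin males in 4 of 5 clusters, and in cluster 1 stood at 41.2 against 17.7 CPM (2.33-fold [1.12, 4.92]). Markers of ependyma and choroid (Ttr, Foxj1 and Folr1) summed to 1592 CPM in that cluster of virgin males and to 0 CPM in virgin females, and the ratio over all neuronal nuclei was 1.59 without the 5 nuclei with at least 10 Ttr UMIs. It was 1.35 without the 5% of nuclei with most UMIs, 1.12 in a draw of 5000 UMIs per nucleus and 1.5 when rounded (just below it before rounding) in the expected value over such draws, so the call was lost under those choices. Mothers held Hcn4 at 25.3 CPM, 0.777-fold [0.548, 1.10] of virgin males and 1.23-fold [0.848, 1.78] of virgin females.

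None of the 5 genes passed 1.5-fold between mothers and virgin females or between mothers and virgin males, where 7.49% and 7.27% of all genes did. Cacna1g stood at 197 CPM in mothers, 169 in virgin males and 174 in virgin females. The ratio of mothers to virgin males was 1.17 [1.02, 1.34], with mothers higher in 4 of 5 clusters, and that of mothers to virgin females was 1.13 [0.994, 1.28], and 0.971 when both libraries were given the same cluster mix. Cluster 1, where Cacna1g was low, held 39 of 201 neuronal nuclei of mothers and 65 of 187 of virgin females. Hcn2 stood at 62.8 CPM in mothers, 64.5 in virgin males and 79.1 in virgin females, and the ratio of mothers to virgin females was 0.794 [0.645, 0.976], with mothers lower in 5 of 5 clusters. Within single clusters, every interval of these Cacna1g and Hcn2 ratios of mothers held 1. Cacna1i stood at 39.8, 45.2 and 41.9 CPM and Hcn3 at 14.1, 13.2 and 18.8 CPM, with intervals of every ratio that held 1. For whole libraries, the share of all genes whose interval left out 1 was not computed.

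Within clusters, 65 ratios had at least 10 UMIs, and 5 intervals left out 1, a share no higher than the 8.88% of 145952 such ratios over all genes. The 5 are given as values. Cacna1i was lower in mothers than in virgin males in cluster 4 (126 against 237 CPM, 0.533-fold [0.348, 0.819]) and in cluster 1 (24.8 against 54.2 CPM, 0.458-fold [0.203, 0.964]). In cluster 0 the same ratio was 1.59 [0.912, 2.82], with mothers at 55.7 CPM. In virgin males, Cacna1g was lower than in virgin females in cluster 3 (227 against 316 CPM, 0.718-fold [0.553, 0.935]) and Hcn2 in cluster 0 (43.1 against 75.6 CPM, 0.570-fold [0.35, 0.905]). The fifth was Hcn4 in cluster 1, given above. The intervals leave out variation between mice and between nuclei and were not adjusted for their number.

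**Figure D3:**
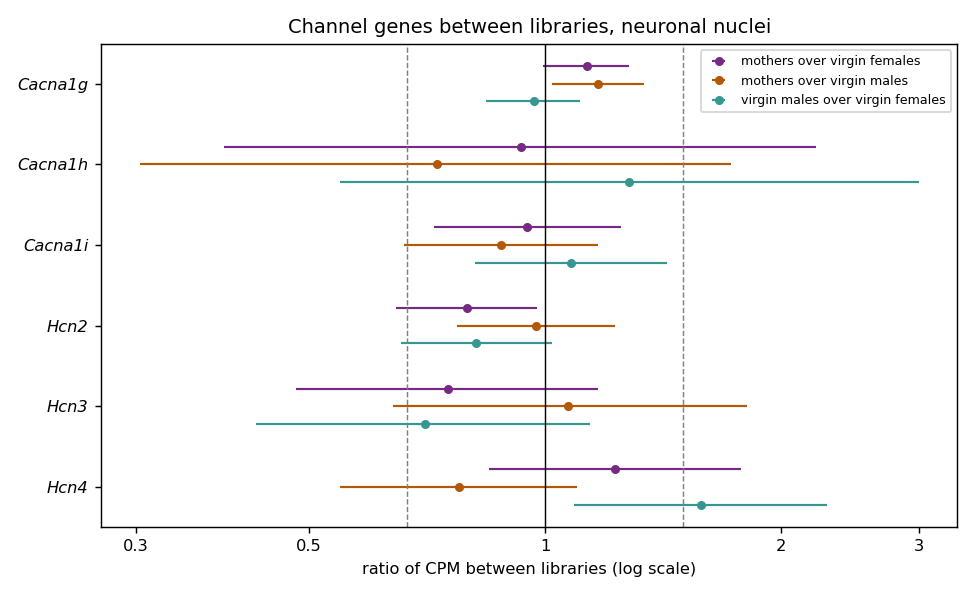
Ratio of CPM in neuronal nuclei between libraries (log axis), with exact conditional binomial 95% intervals, for the 3 pairs of libraries. Dashed lines mark 1.5-fold either way. Hcn4 in virgin males over virgin females (1.58) lies past the line, and the wide intervals of Cacna1h reflect its 38 UMIs.

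Genes that act with these channels were read from 3 lists. The lists were chosen with earlier results of these data known. Of 6 T-type partners, all were measured and 5 passed 1.5-fold in some cluster in all 3 libraries. Of 6 HCN partners 4 were measured and 3 passed, and of 12 genes of other burst and pacemaker currents 10 were measured and 6 passed, against 31.7% of all genes. Median ratios of highest to lowest cluster were 6.53, 2.53 and 2.62, against 1.95 for all genes.

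Among T-type partners, Cachd1, a protein known to raise T-type currents in heterologous cells, was low in cluster 4, at 17.3 CPM in mothers, 11.0 in virgin males and 0 in virgin females. Its other clusters stood between 46.7 and 156 CPM. Klhl1, an actin-binding protein known to modulate T-type channels, was high in cluster 1 (85.6, 126 and 127 CPM) and in cluster 4 (44.6, 93.6 and 78.6 CPM), and stood at 8.02 CPM or less elsewhere. Wwp1, a ubiquitin ligase, was high in cluster 1 (mean 296 CPM) and low in clusters 2 and 3 (75.8 and 89.9 CPM). Plcb4, a phospholipase C of thalamic neurons, was high in cluster 3 (mean 735 CPM) and low in cluster 1 (187 CPM). Stx1a, a syntaxin of the release machinery, was high in cluster 0 (mean 99.3 CPM), as were 4.35% of genes, and low in cluster 1 (9.17 CPM), and Usp5, a deubiquitinase, had no call.

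Among HCN partners, Mrvi1, known as an Hcn4 regulator in heterologous cells, shared its highest cluster with Hcn4. It stood at 120 CPM in mothers, 138 in virgin males and 104 in virgin females in cluster 3, and at 4.95, 0 and 0 CPM in cluster 4, and its lowest mean was in cluster 1 (0.751 CPM), where Hcn4 stood at 29.4 CPM. Pex5l, the auxiliary HCN subunit TRIP8b, was low in cluster 0 (mean 213 CPM), as were 6.55% of genes, and its means stood between 426 and 516 CPM elsewhere. Nedd4l, a ubiquitin ligase of channels, was high in cluster 4 (mean 650 CPM) and low in cluster 0 (245 CPM). Kctd3 had no call, and Kcne2 and Lrmp had 8 and 1 UMIs.

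Among the other currents, the small-conductance calcium-activated potassium channels Kcnn2 and Kcnn3, which shape the pause after a burst, ran in opposite orders. Kcnn2 was high in cluster 1 (466 CPM in mothers, 498 in virgin males and 498 in virgin females) and low in cluster 3 (151, 90.9 and 127 CPM). Kcnn3 was high in cluster 3 (341, 238 and 394 CPM) and low in cluster 1 (49.6, 47.7 and 50.7 CPM). Atp2a2, the calcium pump of the endoplasmic reticulum, was high in cluster 2, as were 1.64% of genes, and in cluster 3 (means 770 and 859 CPM) and low in clusters 1 and 4 (242 and 224 CPM). The leak channel Kcnk3 was high in cluster 3 (38.2 CPM) and low in cluster 4 (7.71 CPM), Kcnk9 was high in cluster 2 (40.8 CPM) and low in cluster 0 (13.2 CPM), and Unc80, of the sodium leak channel complex, was low in cluster 1 (433 CPM). The leak channel itself, Nalcn, its partners Fam155a and Unc79, and Kcnk2 had no call, with ratios of 1.37 to 1.79, and Kcnn1 and Ano2 had 30 and 21 UMIs.

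**Figure D4:**
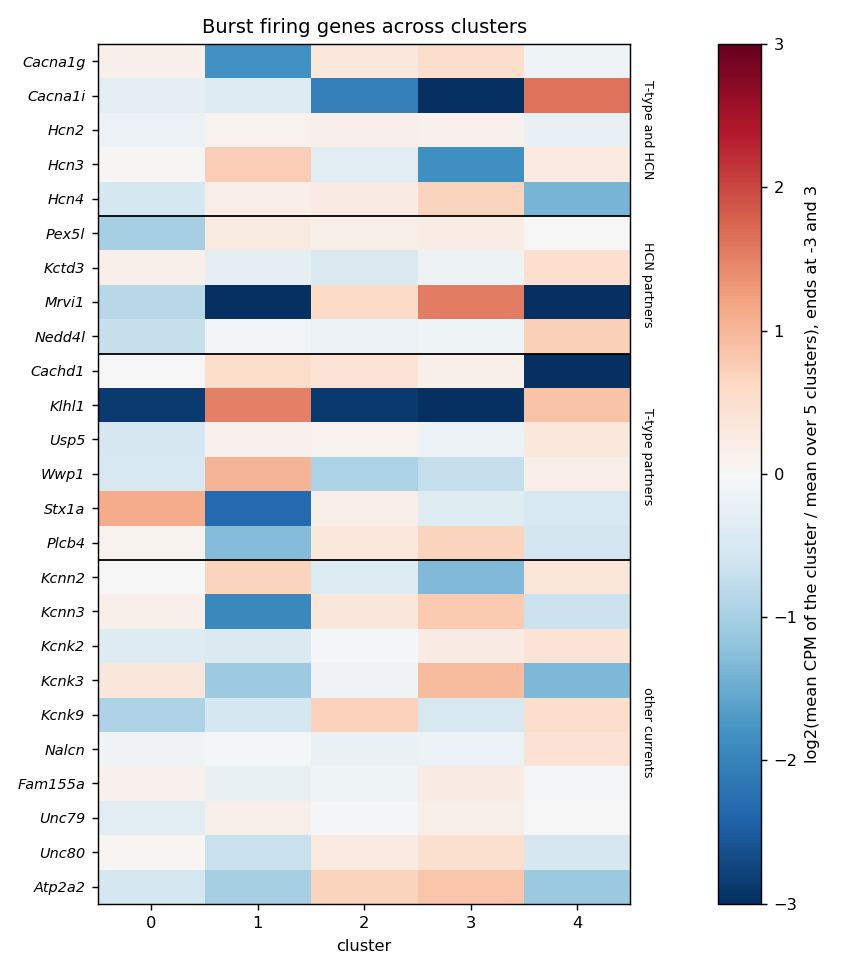
Mean CPM of each gene with at least 50 neuronal UMIs in each cluster, as log2 of its ratio to the gene's mean over the 5 clusters, for the channel genes and the 3 lists. Cacna1g, Stx1a, Plcb4 and Kcnn3 are lowest in cluster 1, and Cacna1i and Nedd4l are highest in cluster 4.

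Between libraries, 3.83% of genes were at least 1.5-fold higher and 3.66% lower in mothers than in virgin females, and 4.25% higher and 3.01% lower in mothers than in virgin males. Past 1.5-fold were Mrvi1 in mothers over virgin females (47.2 against 31.3 CPM, 1.51-fold [1.14, 2.01]) and in virgin males over virgin females (49.9 against 31.3 CPM, 1.60-fold [1.19, 2.15]). Cachd1 (76.5 against 121 CPM, 0.634-fold [0.530, 0.757]) and Klhl1 (25.3 against 48.2 CPM, 0.524-fold [0.385, 0.708]) were lower in mothers than in virgin females. Usp5 was higher in virgin males than in virgin females (27.3 against 16.6 CPM, 1.65-fold [1.10, 2.49]) and Kcnk9 higher in mothers than in virgin males (27.1 against 17.9 CPM, 1.52-fold [1.01, 2.31]). Cluster mix differed between the libraries, and its part in these ratios was not tested.

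Across the 15 sums of cluster and library, the genes most like each channel gene among 6248 genes with at least 200 UMIs were found by Pearson's r of log2 CPM, as a description. Nearest to Cacna1g were Cpne7, a copine (r = 0.96), Kcnip4, a potassium channel interacting protein (0.96), and Ptprz1, a receptor tyrosine phosphatase (0.95). Nearest to Cacna1i were Ptprt, a receptor tyrosine phosphatase (0.96), Ahi1, a cilium protein (0.95), and Prkg1, a cyclic GMP dependent kinase (0.95). Ptprt stood at 820 CPM in cluster 4 and 24.3 in cluster 3. Nearest to Hcn4 were Chrna4, a nicotinic receptor subunit (0.90), P4ha1 (0.88) and Gpatch8 (0.86), and Chrna4 stood at 63.9 CPM in cluster 3 and 6.33 in cluster 4. Nearest to Hcn3 were Tmem208 (0.95), Gm13630 (0.94) and Shisa4 (0.90). The values for Hcn2 (Rrbp1 0.73, Srrm2 0.71, Polr1a 0.70) rest on a gene with little cluster range, and those for Cacna1h (Tsga10 0.86, Dstyk 0.84, Cacng8 0.84) on 38 UMIs.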

How the data were processed

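The authors deposited UMI counts per gene and nucleus and a metadata table with each nucleus's library, total UMI count, percent of mitochondrial UMIs, class and cluster. Per the submitters' processing notes, Cell Ranger 5.0.1 and GRCm38 (mm10) were used. Whether introns or strand were used in counting, and how nuclei and doublets were filtered, was not stated in the labels. No doublet caller was run. Tables were joined on total UMIs and genes with a UMI, unique for all 603 nuclei, and the recomputed mitochondrial percent differed from the deposited percent by at most 0. UMIs of neuronal nuclei were summed by library and cluster in Python 3.11.15, with intervals from scipy 1.17.1. Alternatives used edgeR 4.0.16 and DESeq2 1.42.0 for scaling factors only. Genes needed 50 UMIs for counts over all genes, and 0.5 UMI was added before log2. No test was run, since each group has 1 library. The members and lists were chosen with earlier results of these data known. Genes named were the 6 members, the 3 genes most like each, and list genes past 1.5-fold in all 3 libraries in a cluster or between libraries. The statistics across genes were checked on simulated counts. Coordinates are from GENCODE M21 (GRCm38), promoters from RefSeq (GRCm38.p6).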

Additional observations from a re-analysis of the deposited data

How the results depend on the processing

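The 2 clusters that were highest and lowest in the main values kept their direction under every alternative run. Their ratio was 4.35 to 5.88 for Cacna1g, 30.1 to 51.6 for Cacna1i, 1.14 to 1.46 for Hcn2, 3.89 to 14.8 for Hcn3 and 3.56 to 5.71 for Hcn4. Another cluster could rank highest. Cluster 3 passed cluster 2 for Hcn2 with edgeR factors (80.4 against 78.9 CPM). Cluster 2 passed cluster 3 for Hcn4 in the draw of 5000 UMIs (28.7 against 24.9 CPM). Cluster 1 passed cluster 4 for Cacna1h without mothers (12.3 against 5.37 CPM). Leaving out 1 library gave 1.65 to 5.14 for the Cacna1h floor ratio and 3.89 to 14.8 for Hcn3, with 1.65 and 14.8 without mothers. Thinning gave 1.29 for the Cacna1h floor ratio. Of 162 library ratios under alternatives, 150 stayed within the counting interval and on the same side of 1.5. The others were, with the same cluster mix, Cacna1g in mothers over virgin females (0.971) and Cacna1h in mothers over virgin males (0.569) and virgin males over virgin females (1.55). In the draw of 5000 UMIs they were Cacna1h in mothers over virgin males (1.55) and virgin males over virgin females (0.593), Hcn3 in mothers over virgin females (1.53, from 20 and 12 UMIs) and virgin males over virgin females (1.32), and Hcn4 in mothers over virgin males (1.15) and virgin males over virgin females (1.12). All of these but the last lay on the other side of 1 from the main value. The expected value over draws was 0.928 and 0.881 for Hcn3, and 0.813 and 1.5 (just below it before rounding) for Hcn4. Of the 27 alternatives per gene, the ratio lay on the other side of 1 in 4 for Cacna1h, 3 for Hcn3, 2 for Hcn2 and 1 each for Cacna1g, Cacna1i and Hcn4. Hcn4 in virgin males over virgin females was 1.35 without the deepest nuclei, and Hcn3 in that pair 0.665 without the richest nucleus. The cause of these shifts was not tested. Genes past 1.5-fold numbered 778 in mothers over virgin females, 726 in mothers over virgin males and 758 in virgin males over virgin females. With a minimum of 10 UMIs they numbered 2712, 2657 and 2663, and with 1 UMI 8179, 8306 and 8300. Genes past 1.5-fold in a cluster numbered 3640, against 1746 with at least 200 UMIs, 7933 with at least 1 UMI and 5178 to 5645 when 1 library was left out. With at least 500 UMIs the gene most like Cacna1h was Zfp692 (r = 0.83), Hcn2 Srrm2 (0.71), Hcn3 Mkx (0.90) and Hcn4 Gpatch8 (0.86). The alternatives without Ttr-rich or GABAergic nuclei, thinned cluster ratios and expected values over draws were chosen after seeing the data. No paired analysis was possible because each group has 1 library.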
